A study of Mus musculus with 82 samples.

Results

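The comparison described here set 18 cultures that received angiotensin II (AngII) against 18 that did not, among 82 RNA-sequencing libraries in all. The cells were primary cultures of aortic vascular smooth muscle cells (aVSMC) from C57BL/6 mice. They were grown with serum, insulin, EGF and hydrocortisone and then held for 24 h without any of these before 24 h of incubation. AngII (10 nM) was added on 3 backgrounds. AngII was set against control, EGF+AngII against EGF (10 µg/L), and EGF+AngII+U46619 against EGF+U46619 (1 µM U46619, a thromboxane mimetic). Each group held 6 cultures, 1 from each of mice 1 to 6, so that every culture with AngII had a partner from the same mouse on the same background, 18 pairs in all. The 36 libraries were chosen by these labels alone, and cultures of a mouse are not independent animals. U46619 alone had no partner with AngII and served the AngII contrast only to set the spread. Its cultures also enter the EGF and U46619 comparisons given below.

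AngII is the effector peptide of the renin-angiotensin system. It acts on vascular smooth muscle mainly through the type 1 receptor (AT1R), which in the mouse is encoded by Agtr1a and Agtr1b and couples to Gq proteins, phospholipase C, calcium release and RhoA. It is known for vasoconstriction, hypertrophy and transactivation of the epidermal growth factor receptor (EGFR), and textbook targets include Rgs2 and immediate early genes such as Fos and Egr1. The comparison asks what AngII changed in the transcriptome when the 3 backgrounds are averaged and cultures are compared within a mouse.

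Total counts of the 36 libraries were 16483529 to 20818809, with medians of 19619285.5 with AngII and 19755944.5 without. Levels are given in FPM, counts scaled by the TMM-normalized library size, on the same scale as CPM. Fold changes are log2, with AngII minus without. Of the 55401 genes in the table, 14653 passed the filter on low counts and were tested, and 10162 of these averaged at least 5 FPM. All genes on chromosomes 9, X and Y and the mitochondrial genome are listed at 0, among them Agtr2, so no statement can be made about them. The labelled cell type was checked against markers. The 10 smooth muscle markers summed to 500.0 to 19088 FPM with AngII and 476.4 to 15651 FPM without, Tagln and Cnn1 being listed at 0. Acta2 alone was at 351.9 to 15164 FPM. Other markers of this list were low in some cultures, Myh11 down to 0.149 FPM and Mylk to 1.43 FPM, while Smtn was at least 47.5 FPM. The 10 fibroblast markers summed to 221.9 to 4710 FPM with AngII and 234.5 to 3660 FPM without. Markers of endothelial cells summed to 4.92 to 2521 FPM with AngII and 5.10 to 2961 FPM without, and were highest in mouse 6 for Pecam1 (median 857.4 FPM). Adipocyte markers were also highest in mouse 6, with a median of 1278 FPM for Fabp4 against at most 69.1 FPM in any culture of another mouse. Markers of macrophages and leukocytes summed to 18.4 to 120.4 FPM with AngII and 19.6 to 116.9 FPM without. Among them Lyz2 reached 110.2 FPM, Cd14 41.9 FPM and Csf1r 27.6 FPM, while Ptprc, which marks all leukocytes, did not exceed 0.0541 FPM. With AngII, 0 of the markers of these cell types had p below 0.05 from each tool before adjustment, and their part in the results was not tested.

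1 library stood apart from the others. In the EGF+AngII+U46619 culture of mouse 3, 15716 genes had a count, against 16634 to 19254 in the other 41 libraries after 24 h, and its TMM factor was 0.646 against 0.836 to 1.13. Its total count of 20551231 was not low. Between this culture and its EGF+U46619 partner, 43.4% of the 10162 genes with at least 5 FPM differed more than 2-fold. In the other 17 AngII pairs this share was 0.0492% to 2.22%. The difference followed transcript length, and the other pairs of mouse 3 fell from short to long genes as well, by less. Genes whose longest transcript is under 1 kb (740 genes) had a median log2 difference of 1.62 in this pair, and genes over 8 kb (581 genes) a median of −1.33. In the 17 other pairs the medians were −0.26 to 0.32 for the short genes and −0.45 to 0.30 for the long ones. Mouse 3 had 0.16 and −0.33 on control and 0.32 and −0.45 on EGF. Across genes, the correlation of the difference with length was −0.57 in the pair that stood apart and −0.56 in the EGF pair of mouse 3, which is a description over genes that share libraries. Many results are therefore given with and without this library, but fold changes of single genes include it unless stated otherwise. What made the library differ was not tested.

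**Figure D1:**
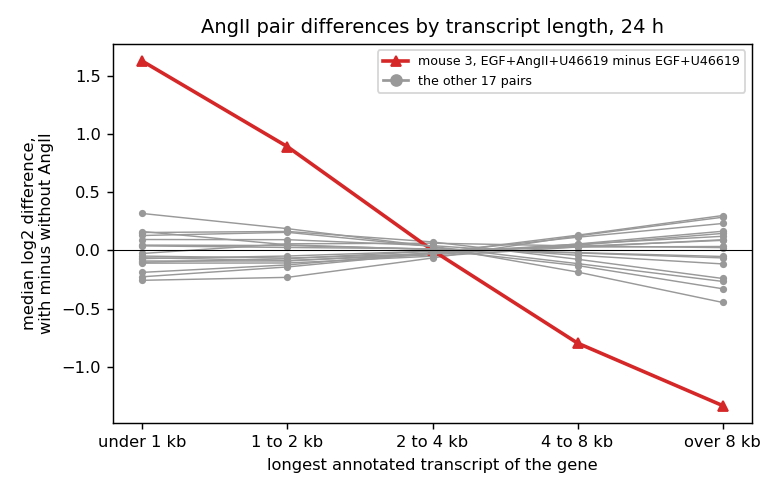
Median log2 difference in level, with minus without AngII, for genes grouped by the length of their longest annotated transcript, 1 line per pair of cultures from a mouse. The EGF+AngII+U46619 pair of mouse 3 (red triangles) falls from 1.62 under 1 kb to −1.33 over 8 kb, while the other 17 pairs (grey) stay between −0.45 and 0.32 at both ends.

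AngII changed no gene past the threshold when the 3 backgrounds were pooled. Calling a DEG required an FDR below 0.05 from edgeR and also from DESeq2, with at least 5 FPM in 1 of the groups. Of 14653 genes, 0 were called (0%), 0 by edgeR alone and 0 by DESeq2 alone. The smallest FDR was 0.9996 in edgeR and 0.9992 in DESeq2. Before adjustment, 112 genes (0.764%) had p below 0.05 from each tool, which is termed nominal here. Of these 51 were higher (0.348%) and 61 lower (0.416%) with AngII, and edgeR alone gave 121 genes and DESeq2 alone 1.05% of those tested. With calibrated p-values, a share of about 0.05 of unchanged genes falls below p of 0.05, so these tests may be conservative. The fit has no term for how backgrounds differ between mice (mean square 2357, against 621.0 for the residual). Its SE may therefore be too wide for differences within pairs, and 0 genes called is not proof of no change. Without the library that stood apart, 0 genes were called and 99 were nominal (0.676%).

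The size of change that these 36 cultures leave room for was small for most genes. The median absolute log2-fold change was 0.07 with a median SE of 0.12. The 95% interval of the log2-fold change lay within −1 and 1, less than 2-fold in either direction, for 13886 of 14653 genes (94.8%). Among the 10162 genes with a mean of at least 5 FPM it did so for 10151 (99.9%), and it lay within −0.5 and 0.5 for 9408 (92.6%). For the remaining genes a change of that size is not excluded. Averaged over the 18 pairs, none of the 10162 genes differed even 1.5-fold (0 genes), the averages ran from −0.47 to 0.45 on the log2 scale, and 0 genes moved the same way in all 18 pairs. Over the 17 pairs without the library that stood apart, the averages ran from −0.32 to 0.39.

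The direct contrast of cultures showed how alike partners were. In the control background, 0.059% to 1.37% of genes differed more than 2-fold between the AngII culture and its partner (median 0.256% over 6 mice). In the EGF background the shares were 0.0492% to 0.974%, with a median of 0.0886%. In the EGF+U46619 background they were 0.0492% to 2.22% in the 5 mice other than mouse 3. EGF pairs made the same way, on control, AngII and U46619 backgrounds, had 0.0984% to 17.4% of genes more than 2-fold apart (median 1.86%). U46619 pairs had 2.1% to 29.7% (median 6.72%). The shares of the AngII and EGF pairs overlap, whereas each U46619 pair differed by more than all but 2 of the 18 AngII pairs.

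**Figure D2:**
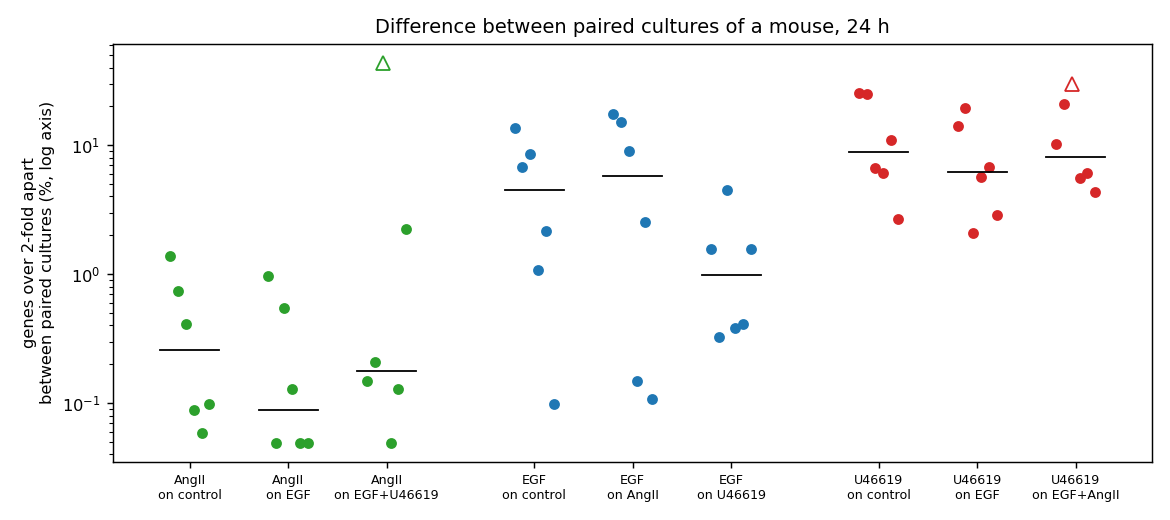
Share of genes (%, log axis) that differed more than 2-fold between a culture with the agent and its partner without it, for AngII, EGF and U46619 on 3 backgrounds each. Points are the 6 mice, lines are medians, and open triangles mark pairs that hold the library of mouse 3 that stood apart. The 3 AngII medians (0.256% on control, 0.0886% on EGF, 0.178% on EGF+U46619) lie below every EGF and U46619 median.

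The spread of these differences was compared over mice. Each pair was summarised by the robust SD of its log2 differences across the 10162 genes, and the 3 pairs of a mouse were averaged. The mean over 6 mice was 0.299 ± 0.175 (SD) for AngII, 0.366 ± 0.120 for EGF and 0.514 ± 0.156 for U46619. With all pairs, EGF exceeded AngII by 0.0668 ± 0.153 and was higher in 5 of 6 mice (exact two-sided sign-flip permutation test, p = 0.3125, Benjamini-Hochberg 0.3125 over 2 comparisons). U46619 exceeded AngII by 0.215 ± 0.174, also in 5 of 6 mice (exact sign-flip permutation test, p = 0.0625, adjusted 0.125). Without the pairs that hold the library that stood apart, the AngII mean was 0.246 ± 0.0710, EGF exceeded it by 0.120 ± 0.0683 and U46619 by 0.237 ± 0.140, each in 6 of 6 mice (exact sign-flip permutation test, p = 0.03125 for both, the smallest p that 6 mice allow, adjusted 0.03125). Leaving out the pairs that hold that library was chosen after seeing the data, the large difference of its AngII pair being among the reasons. The sign-flip p-values without those pairs are therefore a description, not a test of whether AngII pairs spread less. In mouse 3 this left fewer AngII and U46619 pairs than EGF pairs. The agents share cultures as partners, so the 3 sets of pairs are not independent.

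Differences between mice were far larger than any difference with AngII. In the balanced layout of 6 mice, 3 backgrounds and AngII, the mouse took 64.9% of the sum of squares of log2 levels over 10162 genes and the background took 17.1%. AngII took 0.281% on 1 degree of freedom. Its mean square, summed over genes, was 587.7, against 621.0 for the residual and 1193 for the variation of the AngII difference between mice. With mouse 3 left out, AngII took 0.204%, and its mean square was 318.4 against 311.5 for the residual. These shares are a description and carry no test.

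The question whether AngII acted on 1 background and not on another was put to a test of the interaction. Of 14653 genes, 0 were called (0%), 0 by edgeR alone and 0 by DESeq2 alone, and 90 were nominal (0.614%). The 3 genes with the lowest interaction p in edgeR were Omp, Gm42600 and 5033417F24Rik, each with an FDR of at least 0.9999. All of them were low, at no more than 1.23 FPM in any of the 36 libraries. Each background was also tested as a contrast of its own within the same fit over 42 libraries. On control, 0 genes were called (0%) and 65 were nominal (0.444%), 18 higher (0.123%) and 47 lower (0.321%). On EGF, 0 were called (0%) and 69 were nominal (0.471%), 39 higher (0.266%) and 30 lower (0.205%). On EGF+U46619, 0 were called (0%) while 760 genes (5.19%) were nominal, 592 higher (4.04%) and the rest lower (1.15%). That number rested on the library that stood apart. Without it, 133 genes (0.908%) were nominal, 36 higher and 97 lower, and 0 were called. In the fit without it, control and EGF had 84 (0.573%) and 88 (0.601%) nominal genes and 0 called.

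EGF and U46619, tested in the same fit with 18 cultures against 18, called many genes. EGF called 2586 genes (17.6%), 1266 higher (8.64%) and 1320 lower (9.01%). U46619 called 5862 (40%), 3128 higher (21.3%) and 2734 lower (18.7%). The difference between agents was tested itself. The U46619 effect differed from the AngII effect for 4077 genes (27.8%), 2078 with a higher value for U46619 (14.2%) and 1999 with a lower one (13.6%). The EGF effect differed from the AngII effect for 4 genes (0.0273%), and DESeq2 alone gave an FDR under 0.05 for 114 with no FPM minimum, so for most genes that passed with EGF the difference from AngII did not itself pass. The 4 genes, named after their values were seen, were Scg2, Fbln7, Gyg and Tdrp, which were lower with EGF (log2-fold change −1.41, −1.55, −0.86 and −0.82) and had log2-fold changes of 0.12, 0.04, 0.05 and 0.05 with AngII. Scg2 encodes a secretory granule protein, Fbln7 a fibulin of the matrix and Gyg the primer protein of glycogen. Without the library that stood apart, EGF called 3511 genes (24%) and U46619 6416 (43.8%), the contrast of EGF with AngII called 0 and that of U46619 with AngII 4851 (33.1%). The EGF and U46619 comparisons share cultures with the AngII comparison.

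The AT1R gene was expressed unevenly between mice. Agtr1a, the main rodent AT1R gene, lies on mouse chromosome 13 (GRCm38, chr13:30336441-30382867, plus strand). On control its level was 19.7 FPM in mouse 1, and the other mice ranged from 0 to 3.18 FPM (median of all 6, 2.42 FPM). With AngII alone it was 31.7 FPM in mouse 1 and 0.143 to 3.51 FPM in the others (median of all 6, 2.72 FPM). Mouse 1 was highest and mouse 4 lowest in both groups, and the groups overlap. On EGF it was 0.0473, 1.01 and 5.92 FPM (lowest, median, highest) and with EGF+AngII 0, 0.956 and 3.78 FPM. On EGF+U46619 it was 0, 0.220 and 2.41 FPM, and with EGF+AngII+U46619 0, 0.154 and 2.97 FPM. The pooled log2-fold change with AngII was 0.09 ± 0.32 (SE), with a 95% interval of −0.56 to 0.74 and FDR = 0.9996 (edgeR), and it was higher in 10 and lower in 7 of 18 pairs. Agtr1a fell with EGF (log2-fold change −1.52, FDR = 0.00255, edgeR), which was called. With U46619 its log2-fold change was −1.59 (FDR = 0.000173, edgeR), which was not called although this FDR is the lower one. A call also depends on level, and the AngII group takes part in the EGF comparison but not in the U46619 one. The mean of that group, 7.01 FPM, was the highest and rested largely on mouse 1 at 31.7 FPM. The fold changes with EGF and U46619 were similar, so the difference in calling is not read as a response to EGF alone. Agtr1b reached at most 9 counts in any library (0.398 FPM) and was not tested. Agt, which encodes the precursor angiotensinogen, is listed at 0 in all libraries although it lies on none of the chromosomes named above, so its 0 is not read as a level. Tagln, Cnn1, Cdh5 and Cyba are likewise not read.

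**Figure D3:**
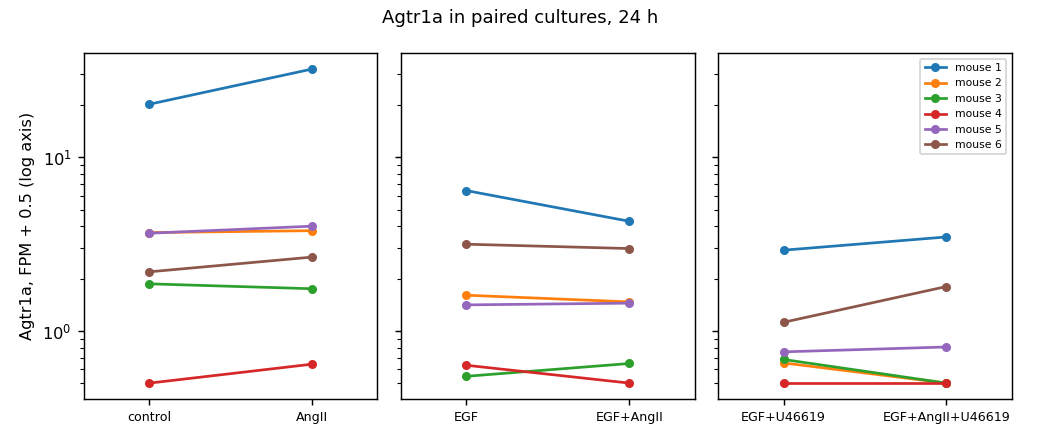
Agtr1a level (FPM + 0.5, log axis) in the paired cultures of 6 mice without and with AngII on the control, EGF and EGF+U46619 backgrounds. Lines join the 2 cultures of a mouse. Mouse 1 lies highest in each panel (19.7 and 31.7 FPM on control without and with AngII), and the lines do not share a direction.

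Mouse 1, with the highest Agtr1a level, had the largest share of genes more than 2-fold apart between AngII and control cultures (1.37%) and between EGF+AngII and EGF cultures (0.974%), but not on EGF+U46619 (0.148%). In mouse 4, where Agtr1a was at 0 counts on control, the shares were 0.0886%, 0.128% and 0.0492%. Large shares in mouse 1 were not particular to AngII. For EGF it had the largest share on control (13.7%) and on AngII (17.4%), but not on U46619. For U46619 it had the largest share on control (25.6%), but not on EGF or EGF+AngII. Its control library had the lowest TMM factor (0.836) of the 41 libraries other than the one that stood apart. What made these shares large was not tested. The 32 tested genes of the AngII response list had median log2 differences of 0.19, 0.06 and 0.03 in mouse 1 on the 3 backgrounds. The 24 immediate early genes had medians of −0.32, −0.25 and −0.12 in the same mouse. Its largest list median was that of the 26 mitotic cell cycle genes, at 1.09 on control (26 of 26 higher, 14 of them more than 2-fold), 0.60 on EGF (21 of 26 higher) and 0.09 on EGF+U46619. The 36 DNA replication genes had 0.44 on control (35 of 36 higher), 0.11 on EGF and −0.05 on EGF+U46619. Values of 1 mouse carry no test.

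The other receptors of the study were measured more evenly. Egfr was at 18.7, 142.4 and 227.5 FPM (lowest, median, highest) in the 18 cultures without AngII and at 22.2, 124.3 and 235.1 FPM with it, so that the ranges coincide. Its log2-fold change was −0.08 ± 0.13 (FDR = 0.9996, edgeR). Tbxa2r, which encodes the thromboxane receptor TP, was at 11.3, 42.7 and 187.6 FPM without AngII and 9.46, 45.8 and 242.9 FPM with it, with a log2-fold change of 0.13 ± 0.18 (FDR = 0.9996, edgeR). Tbxa2r fell with EGF (log2-fold change −0.81) and with U46619 (−1.10), both called.

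Receptors, peptidases and signaling partners of AngII held no called gene. Of the 19 genes listed as AngII receptors, precursor and peptidases, 11 were tested, 0 were called with AngII, and their median log2-fold change was −0.01, beside −0.00 over all 14653 genes. Ace, the converting enzyme, was at 10.3, 75.8 and 356.5 FPM without AngII and 10.8, 64.0 and 231.0 FPM with it (log2-fold change −0.20 ± 0.24). U46619 lowered Ace (−1.24). Of 26 tested AT1R partners and Gq signaling genes, 0 were called and the median was −0.05, with 20 below 0 (also 20 without the library that stood apart) and extremes of −0.15 for Arhgef11, a RhoA exchange factor, and 0.05 for Grk2, a receptor kinase. The AT1R-coupled G protein genes Gnaq and Gna11 had log2-fold changes of −0.08 ± 0.11 and −0.02 ± 0.06, and the receptor-associated protein gene Agtrap −0.06 ± 0.07.

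Genes known to respond to AngII in vascular smooth muscle did not move together after 24 h. Of 32 tested, 0 were called, 0 were nominal, and the median was 0.00, with 16 above and 16 below 0. Rgs2, a brake on Gq signaling, was at 0.878, 3.37 and 32.7 FPM without AngII and 0.757, 3.91 and 37.1 FPM with it, a log2-fold change of 0.11 ± 0.21. Rcan1, a calcineurin regulator, had 0.04 ± 0.09. The member with the lowest p was Olr1, a receptor for oxidised LDL, at 0.0599, 2.59 and 21.8 FPM without AngII and 0, 2.23 and 16.5 FPM with it. Its log2-fold change was −0.42 ± 0.26 (FDR = 0.9996, edgeR) and it was lower in 14 of 18 pairs, a change that did not pass. In the same list, U46619 raised 16 genes and lowered 6, beside 21.3% and 18.7% of all genes tested. EGF raised 5 and lowered 4, beside 8.64% and 9.01%.

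Early and growth-related genes were not called with AngII either. All values are from 24 h of incubation, so an earlier, passing response of these genes was not measured. Of 24 immediate early genes, 0 were called, with a median of −0.03. Fos had 0.02 ± 0.15, Egr1 −0.12 ± 0.17, Jun −0.09 ± 0.15 and Klf2 −0.10 ± 0.10. Of 24 EGFR ligands and ERK feedback genes, 0 were called with AngII and 13 were raised by EGF. EGF raised 8.64% of all genes tested. These RNA levels do not measure transactivation of EGFR. Dusp6 and Spry4, feedback inhibitors of ERK, had −0.03 ± 0.18 and −0.05 ± 0.27 with AngII and 1.11 and 1.46 with EGF. Areg, which encodes the ligand amphiregulin, had 0.21 ± 0.41. The 26 mitotic cell cycle genes had a median of 0.04 with AngII (0.00 without the library that stood apart), and 1.21 with EGF, which raised all 26 tested. Single pairs differed widely around that value. The pair medians ran from −0.18 to 1.09 in the 17 pairs, with 1.09 and 0.60 in mouse 1 and 0.76 in mouse 6 on EGF+U46619 (26 of 26 higher), and the pair of the library that stood apart had −0.89. Mki67 had −0.10 ± 0.34, Ccnb1 0.01 ± 0.33 and Cdk1 0.15 ± 0.24 with AngII.

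The 36 tested DNA replication genes had a median log2-fold change of 0.08 with AngII, 32 of them above 0, and 0 were called or nominal. Without the library that stood apart the median was 0.06, with 34 above 0. Genes of one process vary together between cultures, so the number above 0 is not a count of independent observations. Over the 17 other pairs the list's median ranged from −0.07 to 0.44 and was above 0 in 13. EGF raised 35 of these genes and U46619 also 35, beside 8.64% and 21.3% of all genes tested. Pcna, the polymerase clamp, was at 62.3, 187.4 and 398.3 FPM without AngII and 53.7, 207.4 and 400.6 FPM with it (0.12 ± 0.15), Mcm2 had 0.02 ± 0.16 and Cdc6 0.03 ± 0.27.

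Contractile and matrix genes, which define the phenotype of vascular smooth muscle, were not called either. Of 18 tested contractile genes, 0 were called and the median was 0.07, with 15 above 0 (0.12 and 16 without the library that stood apart). Acta2, smooth muscle actin, was at 351.9, 2926 and 12297 FPM without AngII and 386.4, 3220 and 15164 FPM with it. The groups overlap throughout, and the log2-fold change was 0.15 ± 0.22 (FDR = 0.9996, edgeR), higher in 14 of 18 pairs and in 6 of 6 mouse means. With the pair as a block its log2-fold change was 0.19 ± 0.08, in a fit that takes the pairs of a mouse as separate replicates. It also did not pass, since that fit called 0 genes. Acta2 rose with U46619 (2.07). Myh11, smooth muscle myosin, had 0.09 ± 0.27 and Tpm2, a tropomyosin, 0.21 ± 0.16. Of 31 collagens and matrix genes, 0 were called with a median of −0.07, and −0.01 without the library that stood apart. Col1a1 had −0.10 ± 0.13, Col3a1 −0.18 ± 0.16 and Fn1 −0.09 ± 0.12. In mouse 3, whose mean includes that library, the mean differences were −0.70, −0.82 and −0.92. In the other mice they ran from −0.22 to 0.12, −0.33 to 0.13 and −0.05 to 0.14.

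Inflammatory, oxidative and stress genes gave the same picture. Of 21 chemokines, cytokines and adhesion molecules, 0 were called and the median was 0.00. Ccl2 had −0.02 ± 0.23, Il6 0.00 ± 0.33, Vcam1 −0.06 ± 0.12 and Il11, a fibrosis cytokine, 0.32 ± 0.27. Of 17 NADPH oxidase and antioxidant genes, 0 were called with a median of 0.01, and Nox4, the main oxidase gene of smooth muscle, had 0.06 ± 0.14 while Sod2 had 0.08 ± 0.06. Cyba, which encodes an oxidase subunit, is listed at 0. A further 4 members of this list lie on the chromosomes listed at 0 throughout, so no statement is made about them. Of 20 stress and heat shock genes, 0 were called with a median of −0.01, and Hspa1a, Hspa1b and Ddit3 had −0.09 ± 0.17, −0.07 ± 0.17 and −0.01 ± 0.15. Klf15 and Spp1, which move strongly with EGF and U46619, had −0.01 ± 0.13 and −0.04 ± 0.38 with AngII.

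**Figure D4:**
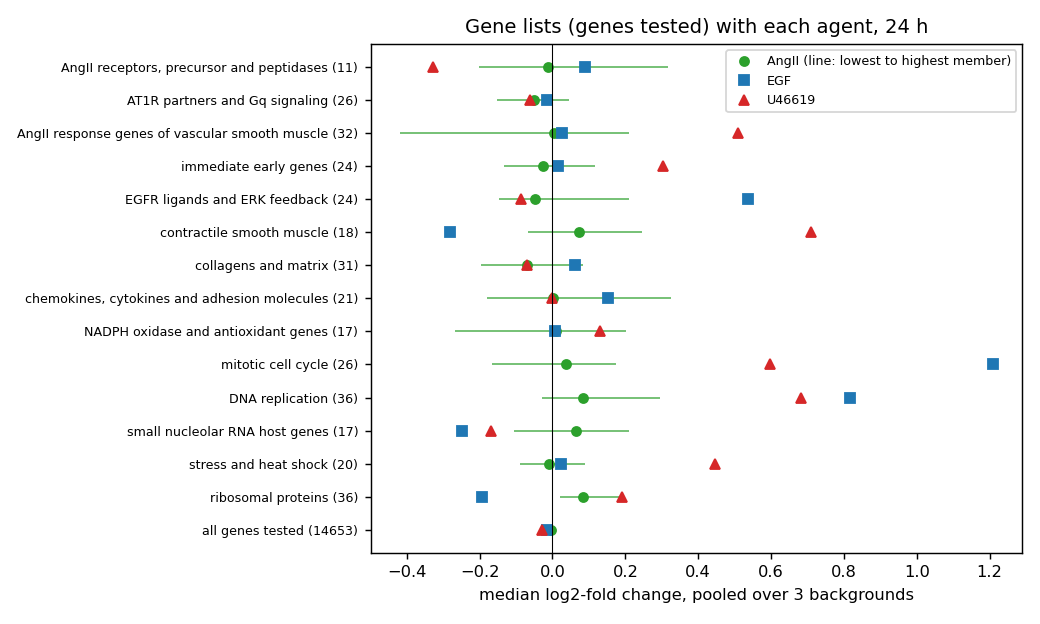
Median log2-fold change of 14 gene lists (number of genes tested in brackets) and of all genes, with AngII, EGF and U46619 pooled over 3 backgrounds each. Green lines run from the lowest to the highest member with AngII. AngII medians lie between −0.07 and 0.08, whereas the mitotic cell cycle reached 1.21 with EGF and contractile genes 0.71 with U46619.

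The medians of 6 of the 14 lists changed sign when the library that stood apart was left out. In 4 of them, the immediate early, chemokine, NADPH oxidase and stress lists, both values lay between −0.03 and 0.01. The other 2 moved further. The 36 tested ribosomal protein genes, short and abundant transcripts, had a median of 0.08 with all 36 above 0, and of −0.02 with 8 above 0 without it. In the pair of mouse 3 their median log2 difference was 1.94, and in the other 17 pairs it ran from −0.46 to 0.34. Rpl38, for example, was at 2166 FPM in that library and at 151.2 to 548.5 FPM in the other 17 cultures with AngII. The 17 small nucleolar RNA host genes had a median of 0.07 with all libraries and −0.03 without, with 14 and 7 genes above 0. 0 genes of either list were called.

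No gene being called, the 8 genes with the lowest p in each direction, among those with at least 5 FPM in 1 group, are given to show what the genes nearest to a call look like. They are ranked by p, not by the size of the fold change. They were chosen by this contrast, so their values are a description. Higher with AngII were Gm7846 (log2-fold change 0.44 ± 0.17), Abhd10 (0.20 ± 0.08), Gtf2f2 (0.19 ± 0.08), Bloc1s4 (0.17 ± 0.07), Dnajc24 (0.20 ± 0.08), Ube2j2 (0.15 ± 0.06), Coa7 (0.27 ± 0.12) and Gm10273 (0.23 ± 0.10). Abhd10 encodes a mitochondrial hydrolase, Gtf2f2 a subunit of transcription factor TFIIF, Bloc1s4 a subunit of a lysosome biogenesis complex, and Ube2j2 a ubiquitin-conjugating enzyme. Gm7846 is a processed pseudogene. The AngII pair of mouse 3 on EGF+U46619 had the highest difference of all 18 pairs in 7 of these 8 genes. Gtf2f2 was at 17.6, 26.6 and 37.0 FPM without AngII and 17.3, 25.9 and 48.1 FPM in the 17 other cultures with it, but at 91.7 FPM in that library. Without the library all 8 kept a positive log2-fold change, 0.10 to 0.28, and 5 stayed below p of 0.05 in edgeR before adjustment. Without all cultures of mouse 3 that number was 0.

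Lower with AngII were Gm43305 (−0.43 ± 0.13), Hmcn1 (−0.74 ± 0.28), Greb1 (−0.51 ± 0.21), Aox3 (−0.92 ± 0.38), Gm44126 (−0.75 ± 0.32), Adam22 (−0.34 ± 0.15), Baiap2l1 (−0.20 ± 0.09) and Gm7072 (−0.27 ± 0.12). Hmcn1 encodes a very large matrix protein, Greb1 an estrogen-responsive cofactor, Aox3 an aldehyde oxidase and Adam22 a non-catalytic member of the ADAM family. Hmcn1, Greb1 and Aox3 were low in most cultures, with medians of 0.608, 1.01 and 0.210 FPM without AngII and 0.564, 0.826 and 0.128 FPM with it. Hmcn1 was lower in 11 and Aox3 in 12 of 18 pairs. DESeq2 gave an unadjusted p of 0.0624 for Aox3 and 0.0528 for Baiap2l1. 6 of the 8 genes had their lowest difference in that pair of mouse 3. Without its library 5 of the 8 stayed below p of 0.05.

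Gm43305 moved in 1 direction in more pairs than any other of the 16. Its mouse means ran from −0.79 to −0.15, and those of Baiap2l1, at −0.22 to −0.08, lay closer together. This noncoding transcript lies at chr14:54292443-54297456 (GRCm38, minus strand). On control it was at 2.33, 4.56 and 15.9 FPM and with AngII at 1.23, 3.16 and 14.1 FPM (lowest, median, highest). On EGF it was at 1.87, 5.00 and 13.7 FPM and with EGF+AngII at 1.84, 4.95 and 13.6 FPM, which is nearly the same. On EGF+U46619 it was at 0.822, 2.72 and 10.8 FPM and with AngII added at 0.461, 1.83 and 8.95 FPM. The groups overlap because mice differ, yet it was lower in 17 of 18 pairs and 6 of 6 mouse means (FDR = 0.9996, edgeR). It did not pass the correction over 14653 genes.

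**Figure D5:**
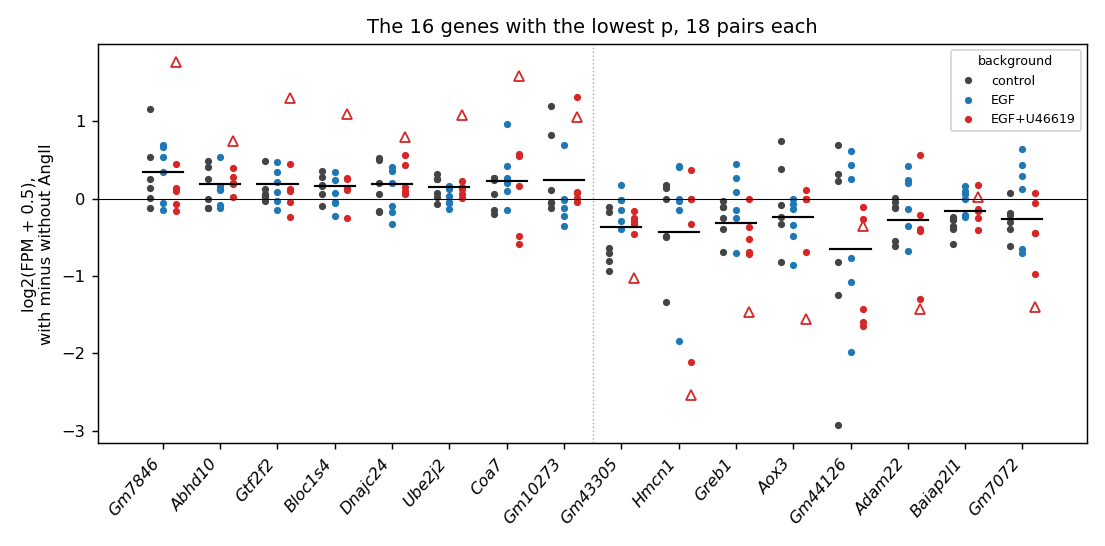
Log2 difference, with minus without AngII, in each of 18 pairs for the 8 genes with the lowest p that were higher (left of the dotted line) and the 8 that were lower (right). Colours are backgrounds, black bars are means, and open triangles are the pair of mouse 3 that holds the library that stood apart, which is the extreme value in 13 of 16 genes.

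With each of the 18 pairs as its own block, which removes the differences between backgrounds within a mouse, the median SE fell to 0.10. That block takes the 3 pairs of a mouse as separate replicates of the AngII difference. Between mice, this difference had a mean square of 1193 against 621.0 for the residual, and 468.6 against 311.5 without mouse 3. The SE and intervals of such a fit can therefore be too narrow for 6 mice. Again 0 genes were called (0%), 0 by either tool alone, while 241 (1.64%) were nominal. Without the pair of the library that stood apart the median SE was 0.07, 0 genes were called and 337 (2.3%) were nominal. In this last fit the 95% interval lay within −0.5 and 0.5 for 99.2% of the 10594 genes with at least 5 FPM in 1 group. Its leading genes, chosen after their values were seen, were Plppr3 (−0.30 ± 0.08, lower in 16 of 17 pairs), Gm43305 (−0.35 ± 0.09), Ogn (−0.26 ± 0.07, lower in 13 of 17) and Fbln1 (−0.28 ± 0.08, lower in 14 of 17) on the low side, and Fabp4 (0.31 ± 0.08, higher in 14 of 17) and Acsl1 (0.15 ± 0.05, higher in 11 of 17) on the high side, each with FDR = 0.9997 in edgeR. Ogn and Fbln1 encode matrix proteins of fibroblasts and smooth muscle, and Fbln1 is 1 of the fibroblast markers. Fabp4, a fatty acid carrier, is also an adipocyte marker. It was at 5.57, 28.1 and 1410 FPM with AngII and 2.45, 31.7 and 1292 FPM without, so that the median was lower with AngII while most pairs were higher. Adipocyte markers summed to 22 to 2870 FPM with AngII and 18.4 to 2383 FPM without, and their part in this difference was not tested.

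A second set of cultures, incubated for 48 h, gives values that the 24 h data did not choose. There, 10 libraries with AngII were set against 10 without on the control and EGF backgrounds, from 5 culture sets. The labels give these sets only 3 mouse numbers, 3 of the sets sharing 1, so that sets are not independent animals, and the fit used the set as a block. 0 of 15796 genes were called (0%), 0 by edgeR alone and 0 by DESeq2 alone, and 0.988% were nominal (197 genes in DESeq2 alone). The median SE was 0.12. 1 control library of this set also stood apart, with 15.4% of genes more than 2-fold from its AngII partner against 0.0578% to 4.02% in the other 9 pairs. Without it 0 genes were called and 290 were nominal. With culture set 6 left out instead, 373 genes were nominal and 0 were called. Of the 8 genes highest by p after 24 h, 4 had a positive log2-fold change after 48 h, −0.10 to 0.06, and of the 8 lowest 6 had a negative one. Without the control library that stood apart these numbers were 3 and 4. In edgeR 0 of the 16 were below p of 0.05 there before adjustment. The lowest p was that of Adam22, whose log2-fold change was 0.24, the opposite sign to 24 h. Gm43305 had −0.28 ± 0.26 (FDR = 0.9999, edgeR) and 0.07 without that library. Acta2 had −0.02 (−0.08 without it) and Agtr1a 0.35 ± 0.43 (0.12 without it).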

How the data were processed

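Gene counts came from the deposited tables of 82 libraries (42 after 24 h, 40 after 48 h). The authors used HISAT2 2.1.0 (mm10) for alignment and featureCounts with Ensembl genes for counting, multi-mapping reads included, so near-identical copies share counts; the deposited values are raw counts, not normalized. Counts were fitted with edgeR 4.0.16 (quasi-likelihood) and DESeq2 1.42.0 in R 4.3.3, with mouse and treatment as terms over the 42 libraries of 24 h. Pooled effects are contrasts averaging 3 backgrounds. FDR is Benjamini-Hochberg. A DEG also had to pass edgeR's filterByExpr at both times (14528 genes). SE and 95% intervals were derived from the F statistic of edgeR. Pair differences used log2(FPM + 0.5). Cultures of a mouse share a number in the labels, and deviations from group means correlated in all 18 pairs (lowest 0.540, median 0.914). No libraries were near-duplicates.

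After 48 h the culture set replaced the mouse. Transcript lengths and positions came from GENCODE vM21 (GRCm38). Scripts were tested on simulated data. Named genes were AT1R, EGFR and TP genes, Klf15 and Spp1, the 8 lowest p each way, the 3 lowest interaction p, and the first 3 members and lowest p of each list. The comparison, lists and tests were chosen with earlier results of these data known. Alternatives changed the tool, size factors, filters, block and libraries. A member of the AngII response list that this rule names is not reported here.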

Additional observations from a re-analysis of the deposited data

Results flagged for a closer look

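A gap test over groups of 6 cultures or 6 mice was applied to 52 groups, and 13 had a value far from the others. Chance gives about 1 in 20 for independent groups of normally distributed values that were not chosen by their values. These groups share mice, FPM were taken without logs, and 16 of the genes were chosen by their p in this contrast. The number flagged is therefore a description and is not set against that rate. The robust SD of the EGF+AngII+U46619 pair of mouse 3 was 1.27, with the next mouse at 0.373, and the TMM factor of its library was 0.646, with the next at 0.906. In 6 further groups the mouse mean of mouse 3 stood off. These were log2 differences with AngII of −0.66 for Egfr, 1.15 for Gm7846, 0.45 for Abhd10, 0.75 for Gtf2f2, 0.60 for Bloc1s4 and −0.95 for Greb1. All of these values include the library of mouse 3 that stood apart, and its part in the 6 mouse means was not tested. For Egfr the other 2 pairs of mouse 3 had −0.30 and −0.55.

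Agtr1a in mouse 1 stood off in 3 groups, at 19.7 FPM on control (next 3.18), 31.7 FPM with AngII (next 3.51) and 2.41 FPM on EGF+U46619 (next 0.620). Tbxa2r in mouse 2 stood off in 2 groups, at 187.6 FPM on control (next 98.6) and 242.9 FPM with AngII (next 96.3).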

How the results depend on the processing

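The count of 0 genes called with AngII held under every alternative that was run for the pooled contrast, each background, the interaction and 48 h. For the pooled contrast these were each tool alone, the likelihood ratio test, limma, other size factors, no count or FPM filter, leaving out each replicate or background, and the replicate block of 18 pairs, with 0 genes called in each. With no count filter the FDR of DESeq2 by itself, with no FPM minimum, was under 0.05 for 61 genes pooled, 27 on control, 18 on EGF and 45 on EGF+U46619, and that of edgeR for 0. The interaction and 48 h were run under fewer of these. The number with an unadjusted p under 0.05 (112) became 217 with no count filter, 39 with no replicate block, 241 with a replicate block of mouse by background, 337 with that block without the pair of the library that stood apart, 207 without the EGF background and 63 without the EGF+U46619 background. That number is defined on edgeR and DESeq2 together, so limma, which called 0 genes, gives its own share, 1.24% on 6 per-mouse means. The number was 88 to 250 when each replicate was left out, 250 without mouse 1. With no replicate block EGF called 370 genes, U46619 3069, EGF minus AngII 0 and U46619 minus AngII 1111. EGF minus AngII (4) called 100 with DESeq2 alone (114 before the FPM minimum and the filter at both times), 79 with the likelihood ratio test, 36 with no count filter and 0 without the library that stood apart, an alternative chosen after seeing the data. Leaving out each replicate gave 732 to 3167 for EGF (732 without mouse 1, 1306 without mouse 2 and 1673 without mouse 3), 4399 to 6441 for U46619, 0 to 112 for EGF minus AngII (0 without mouse 1, 2 or 3, 1 without mouse 5 and 112 without mouse 6) and 2373 to 4959 for U46619 minus AngII (2373 without mouse 2). The cause was not tested. For 73 named genes, 1095 values under alternatives included 100 that changed sign, in 35 genes, and 0 that passed the FDR. Low counts limit Agtr1b and other genes under 5 FPM, and p-values measure spread between cultures of 6 mice.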
